A study of Mus with 15 samples.

Results

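Genes of cholesterol synthesis and of its control, namely Hmgcs1, Idi1, Fdft1, Sqle, Lss, Cyp51, Insig1 and Srebf2, were followed through 5 sorted populations of mouse thymocytes. They were taken by symbol from the count table as genes driven by SREBP2, the transcription factor that Srebf2 itself encodes. All 8 were found among 55573 genes, and all 8 were among the 16069 genes that passed a filter on low counts. None of the 8 is an uptake receptor, so genes of cholesterol uptake and transport are described beside them.

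RNA was measured by bulk sequencing in 15 libraries, 3 from each of 5 gates, from thymi of female C57Bl/6 x Foxp3-GFP mice, 6 weeks old. The labels do not describe the Foxp3-GFP allele further, and they do not say whether a replicate, numbered 40, 42 or 43, was a mouse or a pool, so that p-values measure only how these samples vary, which may in part be technical. Thymi were dissociated mechanically and depleted of CD8-bearing cells with magnetic beads before the sort. In all 5 gates the cells were live and carried the T cell receptor beta chain and CD4 without CD8 or CD73. Gates were set by CD25, a chain of the IL-2 receptor, and by FOXP3, the transcription factor of regulatory T cells (Tregs). Cells negative for both were sorted as conventional CD4SP (CD4 single-positive). Progenitors of Tregs were sorted as CD25+ Foxp3- (CD25+ progenitors) or as CD25- Foxp3lo (FOXP3lo progenitors), and the double-positive cells as mature Tregs. Absence of BST2, an interferon-induced membrane protein, was required in those 4 gates. The last gate, Bst2+, required BST2 together with at least 1 of the 2 Treg markers.

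The libraries held 10816064 to 23758157 assigned counts. Levels are CPM, a gene's counts scaled to a common library size and composition. A difference is called at an adjusted p under 0.05 (edgeR's quasi-likelihood test, Benjamini-Hochberg adjustment over all genes tested). Some counts at an unadjusted p under 0.05 are given too, without the share of all genes at that threshold. The Bst2+ libraries stood apart: they had 14685 to 17198 genes with a count against 18355 to 23382 elsewhere, and a biological coefficient of variation of 0.947 against 0.149 to 0.24 in the other gates. Macrophage markers summed to 568 to 953 CPM in them and to 1.61 to 7.38 CPM in the other 12 libraries, while T cell markers summed to 2283 to 3655 CPM in all 15. All 7 macrophage markers had counts in FOXP3lo progenitors, while in the remaining gates some had no count in any library: C1qa in conventional cells, Lyz2, C1qa and C1qc in CD25+ progenitors, and Lyz2, C1qb, C1qc and Adgre1 in mature Tregs. Bst2 itself was at 50.3, 18.4 and 15.7 CPM in the Bst2+ libraries against means of 12.2 to 15.1 CPM in the other gates, called higher than the mean of the 3 Treg-lineage gates (log2 fold change 1.03 ± 0.27, adjusted p = 0.00697), though its 3 values overlapped theirs. Every comparison among the other 4 gates is therefore also given from a fit of the 12 libraries without the Bst2+ gate, in which 15648 genes were tested. The comparison of Bst2+ cells has no such fit. It shares 1 spread per gene over all 15 libraries, so its standard errors and p-values may be too small. In bulk samples, fewer cells of a type and less RNA per cell cannot be told apart.

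SREBP2 is made as an inactive precursor in the membrane of the endoplasmic reticulum. When sterols are scarce, the escort protein SCAP carries it to the Golgi, where the proteases encoded by Mbtps1 and Mbtps2 free the part that enters the nucleus. When sterols are abundant, INSIG proteins hold SCAP and SREBP2 back. Nuclear SREBP2 turns on the enzymes that build cholesterol from acetyl-CoA, genes of lipoprotein uptake, INSIG1 and its own gene. T cells that prepare to grow and divide are known to raise this pathway, and cholesterol is a component of their new membrane.

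Among the 4 gates without BST2, the mean of the sterol genes was higher in the 2 gates with CD25 on the surface than in the 2 gates without it. The mean log2 CPM over the 8 genes was 4.38 ± 0.03 in CD25+ progenitors, 4.09 ± 0.13 in mature Tregs, 3.47 ± 0.12 in conventional cells and 3.32 ± 0.15 in FOXP3lo progenitors (SD, n = 3). The ranges over libraries were 4.34 to 4.41, 3.96 to 4.20, 3.34 to 3.59 and 3.15 to 3.41, so that both gates with CD25 lay above both gates without it in every library. The Bst2+ libraries lay highest and spread widest, at 4.66 ± 0.24. These means are a description of the 8 genes, with no test. Sqle, Cyp51 and Idi1 differed by the largest folds between gates and Lss followed another order, as the plot of levels by library shows.

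**Figure D1:**
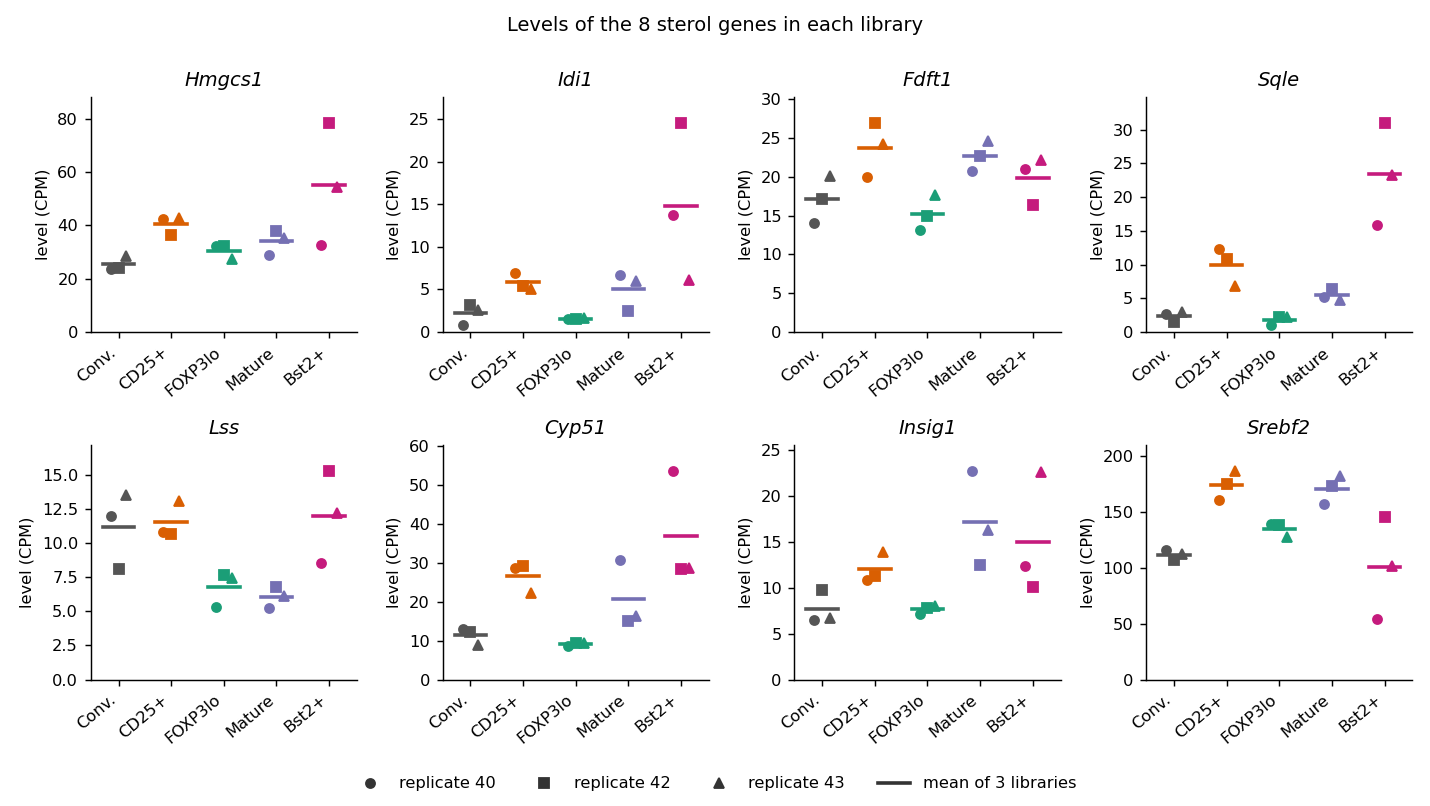
Level of each of the 8 sterol genes in CPM (vertical axes, from 0) in each library of the 5 gates (horizontal axes). Points are libraries, shaped by replicate number, and bars are means of 3 libraries; Sqle lies between 6.83 and 12.3 CPM in CD25+ progenitors and between 0.979 and 2.90 CPM in conventional cells and FOXP3lo progenitors.

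The regulator came first in abundance. Per kilobase of exon, Srebf2 averaged 24.3 ± 1.79 CPM in CD25+ progenitors, ahead of Hmgcs1 at 8.80 ± 0.777, Cyp51 at 6.05 ± 0.890, Fdft1 at 5.76 ± 0.836 and Insig1 at 3.88 ± 0.527 (SD, n = 3). Sqle at 1.80 ± 0.512, Idi1 at 1.66 ± 0.284 and Lss at 1.07 ± 0.125 CPM per kilobase were the least abundant there. In conventional cells Sqle was the lowest of the 8, at 0.427 ± 0.138 CPM per kilobase, below Idi1 at 0.621 ± 0.338 and Lss at 1.04 ± 0.257. The lengths are those of the count table, which joins all annotated exons of a gene. Fewer reads stood behind the low genes: the counts per library were 17 to 383 for Sqle and 21 to 303 for Idi1, against 569 to 3531 for Srebf2.

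Srebf2 (ENSMUSG00000022463, GRCm38 chromosome 15, 82147181 to 82205379, forward strand) encodes SREBP2. Its level was 116, 107 and 112 CPM in conventional cells, 139, 138 and 128 CPM in FOXP3lo progenitors, 161, 175 and 187 CPM in CD25+ progenitors and 157, 173 and 182 CPM in mature Tregs (replicates 40, 42 and 43, the order used for every set of 3 values). The conventional libraries lay below all others of these 4 gates, the FOXP3lo libraries next, and the 2 gates with CD25 overlapped at the top. The steps were small: CD25+ progenitors stood 1.56-fold above conventional cells. Srebf2 contains the gene of the microRNA Mir33 and an unnamed gene on the same strand, which held 40 and 1210 counts over all libraries against 34278 for Srebf2.

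Insig1 (ENSMUSG00000045294, chromosome 5, 28071363 to 28078662, forward strand) encodes the sterol-dependent anchor of SCAP and is itself a target of SREBP2. It was measured at 6.43, 9.76 and 6.67 CPM in conventional cells, 7.09, 7.82 and 8.005 CPM in FOXP3lo progenitors, 10.8, 11.3 and 13.9 CPM in CD25+ progenitors and 22.7, 12.4 and 16.3 CPM in mature Tregs. Conventional cells and FOXP3lo progenitors overlapped, and every library of both gates with CD25 lay above them. Of the 8 genes only Insig1 had a higher mean in mature Tregs, 17.1 CPM, than in CD25+ progenitors, 12.01 CPM, and the libraries of those 2 gates overlapped.

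Hmgcs1 (ENSMUSG00000093930, chromosome 13, 119690379 to 119708260, forward strand) encodes the synthase that makes HMG-CoA at the head of the mevalonate route. Its level was 23.6, 23.9 and 28.6 CPM in conventional cells, 32.1, 32.1 and 27.4 CPM in FOXP3lo progenitors, 42.3, 36.3 and 42.7 CPM in CD25+ progenitors and 28.9, 37.8 and 35.3 CPM in mature Tregs. From the lowest mean to the highest (conventional, FOXP3lo, mature Treg, CD25+) neighbouring gates overlapped, and CD25+ progenitors lay clear of both gates without CD25. Idi1 (ENSMUSG00000058258, chromosome 13, 8885501 to 8892451, forward strand) encodes the isomerase that interconverts the isoprenoid building blocks. It stood at 0.849, 3.13 and 2.55 CPM in conventional cells, 1.56, 1.56 and 1.59 CPM in FOXP3lo progenitors, 6.96, 5.45 and 5.08 CPM in CD25+ progenitors and 6.74, 2.49 and 6.02 CPM in mature Tregs. One mature Treg library, replicate 42, fell into the range of the conventional cells. Fdft1 (ENSMUSG00000021273, chromosome 14, 63145150 to 63179578, reverse strand) encodes squalene synthase, the first enzyme committed to sterols. Its levels were 14.04, 17.1 and 20.1 CPM in conventional cells, 13.1, 14.9 and 17.6 CPM in FOXP3lo progenitors, 20.03, 26.9 and 24.2 CPM in CD25+ progenitors and 20.7, 22.7 and 24.6 CPM in mature Tregs. The 2 gates with CD25 lay above the FOXP3lo libraries, while the lowest CD25+ library lay just under the highest conventional one.

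Sqle (ENSMUSG00000022351, chromosome 15, 59315077 to 59331192, forward strand) encodes squalene epoxidase, a rate-limiting enzyme of the late route. It was at 2.71, 1.49 and 2.90 CPM in conventional cells, 0.979, 2.29 and 2.30 CPM in FOXP3lo progenitors, 12.3, 10.8 and 6.83 CPM in CD25+ progenitors and 5.25, 6.44 and 4.73 CPM in mature Tregs. Its gates separated without overlap, except conventional cells from FOXP3lo progenitors. Cyp51 (ENSMUSG00000001467, chromosome 5, 4081145 to 4104746, reverse strand) encodes lanosterol demethylase. Its levels were 13.1, 12.1 and 8.98 CPM in conventional cells, 8.70, 9.50 and 9.48 CPM in FOXP3lo progenitors, 28.6, 29.3 and 22.2 CPM in CD25+ progenitors and 30.8, 15.02 and 16.4 CPM in mature Tregs. Mature Treg replicate 40 was above the CD25+ libraries, and the other 2 lay below them. Lss (ENSMUSG00000033105, chromosome 10, 76531588 to 76557138, forward strand) encodes lanosterol synthase, which closes the sterol rings between the steps of Sqle and Cyp51. It was at 11.97, 8.12 and 13.5 CPM in conventional cells, 5.30, 7.66 and 7.46 CPM in FOXP3lo progenitors, 10.8, 10.7 and 13.1 CPM in CD25+ progenitors and 5.25, 6.78 and 6.09 CPM in mature Tregs. For Lss the division was another one: the 2 gates without FOXP3 overlapped at the top, and the 2 gates with FOXP3 overlapped below them. Cyp51, Lss, Fdft1, Idi1 and Hmgcs1 overlap other genes on the opposite strand. The counting was strand-aware, but how fully it kept them apart was not tested. Akap9, opposite Cyp51, held 87943 counts over all libraries against 4807 for Cyp51. Ctsb, opposite Fdft1, held 42230 against 4784. The genes opposite Lss, Idi1 and Hmgcs1 held 7, 17 and 27 counts.

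Whether sterol genes differed between cells with CD25 and conventional cells was tested first. All 8 fold changes of CD25+ progenitors over conventional cells were positive, with a median log2 fold change of 0.67 (-0.01 for all genes tested). The sign of Lss, at 0.04 ± 0.32, was not stable: it ran from -0.13 to 0.19 when 1 library was left out. Sqle was 4.18-fold higher (log2 fold change 2.06 ± 0.42 SE, adjusted p = 0.00289) and Cyp51 2.35-fold higher (1.23 ± 0.30, adjusted p = 0.0107). These were the 2 called of 8, against 5.98% of all genes called higher and 5.66% lower in this comparison. The Cyp51 call was lost without conventional replicate 43, at 1.08, or CD25+ replicate 42, at 1.16. In the fit of 12 libraries 7 of 8 were called higher, against 14.7% of all genes higher and 14.3% lower. Srebf2 (0.64, adjusted p = 5.15e-09), Hmgcs1 (0.67, adjusted p = 9.60e-05) and Idi1 (1.45, adjusted p = 0.00732) were among the 7, and Lss, at 0.04 (adjusted p = 0.938), was the exception. Of the markers of CD8 and double-positive thymocytes 4 of 7 were also called higher in CD25+ progenitors, and of the proliferation markers 3 of 12; their part in this result was not tested.

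**Figure D2:**
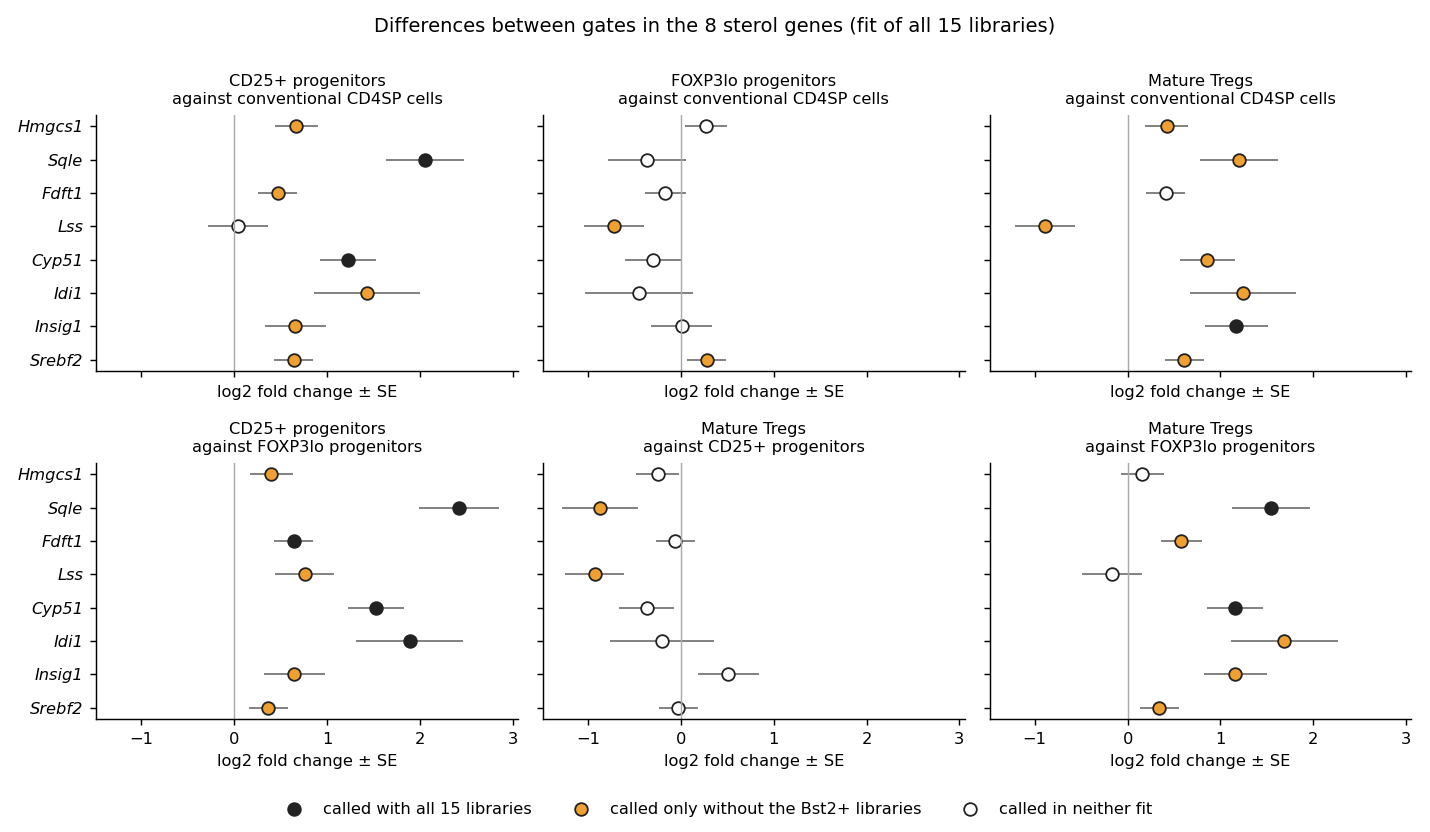
Log2 fold changes (horizontal axes) with standard errors for the 8 sterol genes in the 6 comparisons between pairs of gates, from the fit of all 15 libraries. Filled black points were called in that fit, orange points only in the fit without the Bst2+ libraries, and white points in neither; CD25+ progenitors against FOXP3lo progenitors has 4 black and 4 orange points, all to the right of 0.

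Mature Tregs were compared with the same conventional libraries, which both comparisons share. Their fold changes were positive for 7 of 8 genes, with a median log2 fold change of 0.74 (-0.01 for all genes). With all 15 libraries, Insig1 alone was called, 2.25-fold higher (1.17 ± 0.34, adjusted p = 0.0284), against 6.45% of all genes called higher and 5.73% lower. That call was lost without conventional replicate 40 or 43, at 1.06 and 1.08, or mature Treg replicate 40 or 43, at 0.89 and 1.18, and also with no filter on low counts (adjusted p = 0.0627). Without the Bst2+ libraries, 6 of 8 were called higher (15.1% of all genes): Insig1 at 1.18, Idi1 at 1.25, Sqle at 1.19, Cyp51 at 0.86, Srebf2 at 0.61 and Hmgcs1 at 0.42. Lss was called lower in that fit (15.3% of all genes), at -0.89 ± 0.25 (adjusted p = 0.00480), and Fdft1, at 0.41, was not called (adjusted p = 0.0647).

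In FOXP3lo progenitors, which have FOXP3 and no surface CD25, log2 fold changes over conventional cells ran from -0.72 ± 0.32 for Lss to 0.28 ± 0.21 for Srebf2. None of the 8 genes was called by edgeR in the fit of 15 libraries, against 4.88% of all genes called higher and 3.83% lower. At an unadjusted p under 0.05 there was 1, Lss, and DESeq2 called 0, against 2031 of all genes. The median log2 fold change was -0.24 (-0.02 for all genes), with Sqle at -0.36 ± 0.42, Idi1 at -0.45 ± 0.58 and Cyp51 at -0.30 ± 0.30. Leaving the Bst2+ gate out of the fit, Srebf2 was called higher, at 0.27 ± 0.08 (adjusted p = 0.00536), and Lss lower, at -0.72 ± 0.24 (adjusted p = 0.0247), against 12.8% and 12.3% of all genes.

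The 2 kinds of Treg progenitor were compared with each other, on libraries that the other comparisons also use. In CD25+ progenitors every library of all 8 genes lay above every FOXP3lo library (24.9% of all genes). With all 15 libraries 4 of 8 were called higher, against 9.93% of all genes higher and 9.17% lower. Sqle was 5.35-fold higher (2.42 ± 0.43, adjusted p = 5.54e-04), Idi1 3.70-fold (1.89 ± 0.58, adjusted p = 0.0304), Cyp51 2.89-fold (1.53 ± 0.30, adjusted p = 0.00138) and Fdft1 1.56-fold (0.64 ± 0.21, adjusted p = 0.0462). The calls of Sqle and Cyp51 held whichever library was left out, that of Idi1 was lost without any 1 library of the 2 gates (1.76 to 1.98), and that of Fdft1 was lost in 11 of the 15 such fits (0.54 to 0.77 over all 15) and with no filter on low counts. With 12 libraries all 8 were called higher (19.9% of all genes higher and 19.7% lower), from Srebf2 at 0.37 ± 0.08 to Sqle at 2.42 ± 0.36. Lss, at 0.76 ± 0.24 (adjusted p = 0.0113), was among them. Proliferation markers were called higher in CD25+ progenitors too, 10 of 12, and so were 5 of 7 markers of CD8 and double-positive thymocytes; their part in this result was not tested.

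Among cells with FOXP3, mature Tregs were compared with FOXP3lo progenitors. With all 15 libraries 2 of 8 genes were called higher, against 2.51% of all genes higher and 2.21% lower: Sqle, 2.93-fold (1.55 ± 0.42, adjusted p = 0.0446), and Cyp51, 2.24-fold (1.16 ± 0.30, adjusted p = 0.0335). Both lay near the threshold. With the replicate number as a block only 1 of 8 was called, since Sqle was not (1.57, adjusted p = 0.0676), nor was Sqle called with no filter on low counts (1.54), and 11 of the 15 fits that leave out a library lost Sqle (1.25 to 1.73) and 7 lost Cyp51 (0.76 to 1.19), the lowest value being that without mature Treg replicate 40. When the Bst2+ libraries were left out, 6 of 8 were called higher (9.37% of all genes higher and 9.29% lower), with Idi1 at 1.69 ± 0.44, Insig1 at 1.16 ± 0.23, Fdft1 at 0.58 ± 0.17 and Srebf2 at 0.34 ± 0.08 beside Sqle and Cyp51. Hmgcs1 at 0.16 ± 0.13 (adjusted p = 0.491) and Lss at -0.17 ± 0.25 (adjusted p = 0.737) were not called. Of the proliferation markers 3 of 12 were also called higher in mature Tregs, with their part not tested. That list was split too. Mcm5 was at 56.9, 57.8 and 50.4 CPM in mature Tregs against 26.5, 31.96 and 27.2 CPM in FOXP3lo progenitors. Birc5 was at 1.83, 1.52 and 2.01 CPM against 3.28, 3.97 and 2.41 CPM.

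Between the 2 gates with CD25, the median log2 fold change was -0.22 for mature Tregs over CD25+ progenitors. The largest were Lss, at -0.93 ± 0.32, and Sqle, at -0.87 ± 0.41. None of the 8 genes was called by edgeR with all 15 libraries, against 6.78% of all genes called higher and 6.26% lower. At an unadjusted p under 0.05 there were 2, and DESeq2 called 1, Lss, against 2773 of all genes. Without the Bst2+ libraries Lss was called lower in mature Tregs, at -0.93 ± 0.25 (adjusted p = 0.00308), and so was Sqle, at -0.87 ± 0.34 (adjusted p = 0.0451), against 15.9% of all genes called higher and 16.8% lower. For these 2 genes the libraries did not overlap (21.2% of all genes lower). Srebf2 at -0.03 ± 0.08 and Fdft1 at -0.06 ± 0.17 lay within their standard errors of 0 in that fit. Of the proliferation markers 9 of 12 were also called lower in mature Tregs, and of the markers of CD8 and double-positive thymocytes 4 of 7; their part in this result was not tested.

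The difference associated with CD25 could be compared between cells with and without FOXP3 by the interaction of the 2 gates. It takes the log2 fold change of mature Tregs over FOXP3lo progenitors and subtracts that of CD25+ progenitors over conventional cells. No sterol gene was called by edgeR (1.19% of all genes called higher and 1.16% lower). At an unadjusted p under 0.05 there were 0 of 8, and DESeq2 called 0, against 644 of all genes. The values ran from -0.51 ± 0.59 for Sqle and -0.51 ± 0.33 for Hmgcs1 to 0.50 ± 0.47 for Insig1. Without the Bst2+ libraries 0 of 8 were called as well (5.46% and 5.39% of all genes), the smallest adjusted p being 0.0607 for Srebf2, at -0.30 ± 0.11. The standard errors in the fit of 15 libraries ran from 0.30 for Srebf2 to 0.80 for Idi1, which limits the differences between the 2 steps that could be detected.

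Bst2+ cells were set against the mean of CD25+ progenitors, FOXP3lo progenitors and mature Tregs, with which they share CD25, FOXP3 or both. Sqle, Idi1, Cyp51 and Hmgcs1 were called higher there and Srebf2, the regulator, lower. Sqle was at 15.9, 31.0 and 23.3 CPM, above every library of the other 4 gates, Hmgcs1 at 32.8, 78.3 and 54.5 CPM, Cyp51 at 53.7, 28.5 and 28.8 CPM and Idi1 at 13.7, 24.5 and 6.05 CPM. Srebf2 was at 54.5, 146 and 102 CPM, and its replicate 40 was the lowest of all 15 libraries. Fdft1 was at 20.99, 16.4 and 22.2 CPM, Lss at 8.53, 15.3 and 12.2 CPM and Insig1 at 12.3, 10.1 and 22.6 CPM. Apart from Sqle, the Bst2+ libraries overlapped those of the other 3 gates for each gene (no overlap and higher for 7.65% of all genes).

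In that comparison 4 of 8 genes were called higher, against 19.3% of all genes, and 1 lower, against 19.8%. The higher ones were Sqle, 5.01-fold (2.32 ± 0.30, adjusted p = 1.53e-05), Idi1, 4.09-fold (2.03 ± 0.42, adjusted p = 0.00110), Cyp51, 2.14-fold (1.10 ± 0.23, adjusted p = 0.00116), and Hmgcs1, 1.59-fold (0.67 ± 0.18, adjusted p = 0.00818). Srebf2 was lower, at a log2 fold change of -0.66 ± 0.18 (adjusted p = 0.00878), which became -0.37 without Bst2+ replicate 40 and was still called. The Hmgcs1 call was lost without Bst2+ replicate 42, at 0.32. With 1 spread per gene shared over all 15 libraries, the p-values of this comparison may be too small. Lss, at 0.62 ± 0.25 (adjusted p = 0.0612), was called with the other scaling of library sizes, at 0.67, and by DESeq2, at 0.68. In these libraries the macrophage markers summed to 568 to 953 CPM, and Apoe, a macrophage product and lipoprotein component, averaged 2498 ± 802 CPM against 4.89 to 9.50 CPM on average in the other gates. Markers of CD8 and double-positive thymocytes summed to 758 to 1314 CPM and proliferation markers to 1686 to 2231 CPM, both above all other libraries. Their part in the sterol gene levels was not tested.

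**Figure D3:**
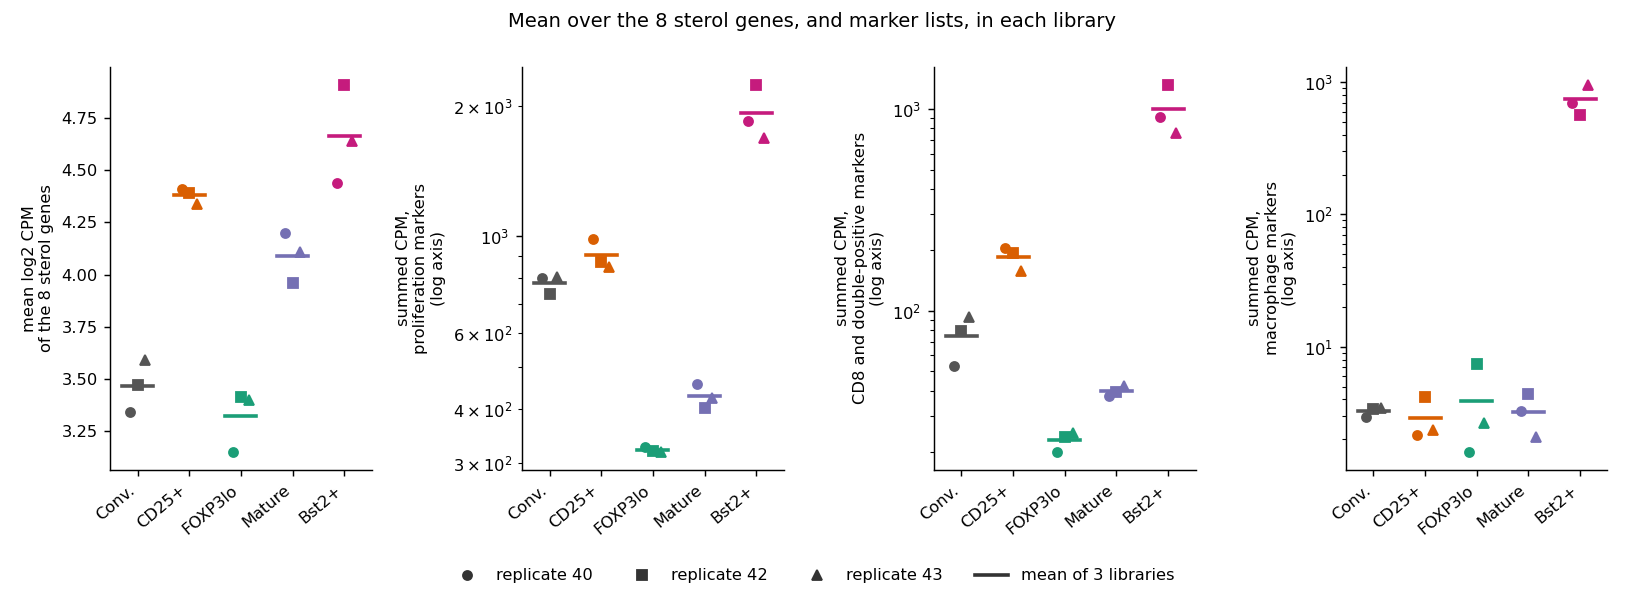
Mean log2 CPM of the 8 sterol genes (left, linear axis) and summed CPM of markers of proliferation, of CD8 and double-positive cells and of macrophages (log axes) in each library of the 5 gates. Points are libraries and bars means of 3; conventional cells have proliferation markers at 736 to 806 CPM, above mature Tregs at 403 to 457 CPM, while their sterol genes are lower.

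Among the 4 other gates, marker sums did not follow 1 order with the sterol genes. Proliferation markers (12 genes) summed to 850 to 988 CPM in CD25+ progenitors, 736 to 806 CPM in conventional cells, 403 to 457 CPM in mature Tregs and 319 to 327 CPM in FOXP3lo progenitors. Between CD25+ and FOXP3lo progenitors they moved with the sterol genes, with 10 of 12 called higher (9.93% of all genes). Between mature Tregs and conventional cells they moved the other way, with 0 of 12 called higher and 6 lower (6.45% and 5.73% of all genes). Markers of CD8 and double-positive thymocytes (7 genes, with Rag1, Rag2, Dntt and Ptcra) summed to 158 to 205 CPM in CD25+ progenitors, 53.1 to 92.6 CPM in conventional cells, 37.7 to 42.2 CPM in mature Tregs and 20.05 to 24.9 CPM in FOXP3lo progenitors, and 4 of 7 were called higher in the first of these gates than in the second. Their part in the sterol gene levels was not tested. Il2ra, which encodes CD25, was at 9.07, 289, 107 and 1152 CPM on average from conventional cells through CD25+ and FOXP3lo progenitors to mature Tregs, and Foxp3 at 0.951, 3.20, 290.0 and 598 CPM. FOXP3lo progenitors, sorted without surface CD25, thus had more Il2ra RNA than conventional cells, without overlap (3.55 ± 0.19, adjusted p = 3.06e-09). Nt5e, which encodes CD73, sorted against in all gates, was at 0.324 to 1.86 CPM in conventional cells and 9.27 to 12.8 CPM in mature Tregs (3.33 ± 1.18, adjusted p = 0.0808, and called without the Bst2+ libraries at 3.39 ± 0.40).

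Of 13 other enzymes of the route most were not called in the comparisons across CD25. In CD25+ progenitors against conventional cells edgeR called 0 of the 13 (5.98% of all genes higher and 5.66% lower), while 1 had an unadjusted p under 0.05 and DESeq2 called 1. Against FOXP3lo progenitors, 0 were called higher and 1 lower in CD25+ progenitors (9.93% and 9.17% of all genes), and again 0 higher and 1 lower in mature Tregs (2.51% and 2.21%). The lower one was Lbr, a sterol reductase that is also the lamin B receptor of the nuclear membrane, at -0.50 ± 0.10 (adjusted p = 0.00122) and -0.47 ± 0.10 (adjusted p = 0.00773), the latter lost without mature Treg replicate 43, at -0.41. Without the Bst2+ libraries the calls in these comparisons were 0 higher and 1 lower (14.7% and 14.3% of all genes), 1 higher and 1 lower (19.9% and 19.7%), and 1 higher and 1 lower (9.37% and 9.29%). Lbr was the lower one each time. The higher ones were Dhcr7, the reductase of 7-dehydrocholesterol, in CD25+ against FOXP3lo progenitors (0.52 ± 0.15, adjusted p = 0.00451), and Mvd, the decarboxylase of the mevalonate route, in mature Tregs against FOXP3lo progenitors (1.18 ± 0.33, adjusted p = 0.00758). The list's median log2 fold changes were 0.12, 0.50 and 0.17 with all 15 libraries, against -0.01, -0.01 and 0.00 for all genes. In Bst2+ cells 4 of 13 were called higher and 0 lower, against 19.3% and 19.8% of all genes. Among the 4 were Fdps, the farnesyl diphosphate synthase (1.83 ± 0.41), Hsd17b7 (2.09 ± 0.46) and Msmo1 (0.85 ± 0.24), the last lost without Bst2+ replicate 43, at 0.53.

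**Figure D4:**
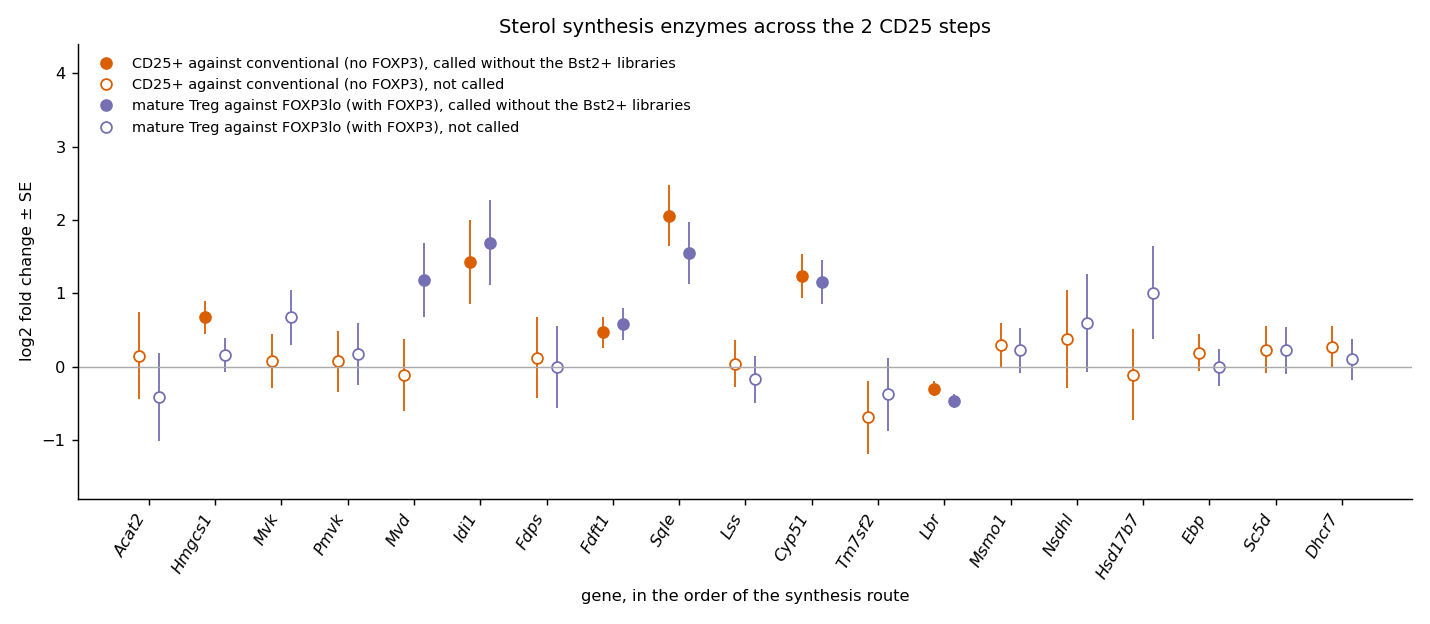
Log2 fold changes with standard errors (vertical axis, fit of all 15 libraries) of 19 enzymes in the order of the route, for CD25+ progenitors against conventional cells (orange) and mature Tregs against FOXP3lo progenitors (purple). Filled points were called in the fit without the Bst2+ libraries; Idi1, Fdft1, Sqle and Cyp51 are filled above 0 in both comparisons and Lbr is filled below 0 in both, while Lss lies near 0.

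Of the uptake receptors, Scarb1, the receptor for high density lipoprotein, was highest in CD25+ progenitors among the 4 gates without BST2. It was at 5.34, 4.10 and 3.77 CPM in conventional cells, 2.07, 1.51 and 2.25 CPM in FOXP3lo progenitors, 12.7, 11.9 and 13.2 CPM in CD25+ progenitors and 5.33, 6.99 and 4.73 CPM in mature Tregs. The FOXP3lo libraries lay below and the CD25+ libraries above all others of these gates, and conventional cells overlapped mature Tregs between them. The log2 fold change of Scarb1 in CD25+ progenitors was 1.51 ± 0.33 over conventional cells (adjusted p = 0.00445) and 2.69 ± 0.34 over FOXP3lo progenitors (adjusted p = 2.13e-05), and both calls held whichever library was left out. That of mature Tregs over FOXP3lo progenitors was 1.54 ± 0.34 (adjusted p = 0.0112), a call lost without FOXP3lo replicate 42, at 1.39, or mature Treg replicate 42, at 1.37, and, at 1.53, when low counts were not filtered. Scarb1 was lower in mature Tregs than in CD25+ progenitors (log2 fold change -1.15 ± 0.32, adjusted p = 0.0249), a call lost without any 1 CD25+ library or mature Treg replicate 40 or 43 (-1.19 to -1.06) and, at -1.16, when low counts were not filtered. It was also lower in FOXP3lo progenitors than in conventional cells (-1.18 ± 0.33, adjusted p = 0.0355), a call lost in 9 of the 15 fits that leave out a library (-1.30 to -1.01 over all 15) and, at -1.18 each, with the replicate block (adjusted p = 0.0621) and with no filter on low counts (adjusted p = 0.251).

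The list of 7 uptake and transport genes, all of which were tested, did not move as 1 group. In CD25+ progenitors against FOXP3lo progenitors 1 was called higher (Scarb1) and 1 lower, against 9.93% and 9.17% of all genes, with a median of 0.74. The lower one was Npc2, a lysosomal carrier of cholesterol, at -0.63 ± 0.10 (adjusted p = 1.21e-04). Against conventional cells the counts were again 1 higher and 1 lower (5.98% and 5.66% of all genes), the same 2 genes, with a median of -0.04. Leaving out the Bst2+ libraries, 3 were called higher and 2 lower against FOXP3lo progenitors (19.9% and 19.7% of all genes). Stard4, a sterol carrier (0.74 ± 0.20), and Lrp8 (1.02 ± 0.22) joined Scarb1, and Lipa, the lysosomal acid lipase (-0.33 ± 0.10), joined Npc2. Lrp8, which encodes another lipoprotein receptor, was nonetheless highest in conventional cells, at 33.3, 29.3 and 31.3 CPM, against 4.44, 11.1 and 9.32 CPM in FOXP3lo progenitors, 19.8, 15.3 and 15.5 CPM in CD25+ progenitors and 10.1, 7.13 and 11.4 CPM in mature Tregs. Conventional libraries lay above all others of these 4 gates. With all 15 libraries Lrp8 was called lower than in conventional cells in FOXP3lo progenitors (-1.92 ± 0.37, adjusted p = 0.00264) and in mature Tregs (-1.71 ± 0.37, adjusted p = 0.00423), whichever library was left out. In Bst2+ cells 4 of 7 were called higher and 0 lower (19.3% and 19.8% of all genes), with Scarb1 at 13.8, 21.02 and 19.98 CPM (1.82 ± 0.24, adjusted p = 2.08e-05), Lipa at 0.83 ± 0.16 and Npc1, the membrane partner of Npc2, at 0.39 ± 0.09.

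Genes of the opposite process, cholesterol export and its control by the sterol sensor LXR, had another order. Abca1, which exports cholesterol to lipoproteins, was at 126, 106 and 112 CPM in conventional cells, 318, 297 and 359.8 CPM in FOXP3lo progenitors, 169.8, 147 and 208 CPM in CD25+ progenitors and 212, 189.8 and 223 CPM in mature Tregs. The FOXP3lo libraries lay above all others in these 4 gates. Abca1 was 1.50 ± 0.18 higher on the log2 scale in FOXP3lo progenitors than in conventional cells (adjusted p = 2.31e-05) and lower in CD25+ progenitors than in FOXP3lo progenitors, at -0.89 ± 0.17 (adjusted p = 0.00124). Mylip, a ubiquitin ligase gene that LXR controls, was at 119 to 127 CPM in conventional cells and 120 to 149 CPM in FOXP3lo progenitors, and at 62.2 to 69.3 CPM in CD25+ progenitors and 72.1 to 94.3 CPM in mature Tregs. CD25+ progenitors had lower Mylip against conventional cells, at -0.92 ± 0.17 (adjusted p = 0.00109), and against FOXP3lo progenitors, at -1.01 ± 0.17 (adjusted p = 2.65e-04). Of the 9 genes of this list 7 were tested. In CD25+ against FOXP3lo progenitors 0 were called higher and 3 lower (Abca1, Abcg1 and Mylip), against 9.93% and 9.17% of all genes, with a median of -0.70. In mature Tregs against conventional cells 2 were called higher (Abca1 and Abcg1) and 1 lower (Mylip), against 6.45% and 5.73% of all genes, with a median of 0.06. Abcg1, another exporter of cholesterol, was at 208, 192 and 204 CPM in conventional cells, 264, 280.0 and 279 CPM in FOXP3lo progenitors, 159, 157 and 168 CPM in CD25+ progenitors and 285, 322 and 309 CPM in mature Tregs. The 2 gates with CD25 thus lay at opposite ends. Mature Tregs had higher Abcg1 than conventional cells (0.60 ± 0.09, adjusted p = 9.99e-05) and CD25+ progenitors (0.92 ± 0.09, adjusted p = 1.13e-06), and higher Abca1 than conventional cells (0.86 ± 0.18, adjusted p = 0.00269); these 3 calls held whichever library was left out.

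Of 6 other genes that control SREBP, only Mbtps1, the site-1 protease, was called between CD25+ and FOXP3lo progenitors (9.93% of all genes higher and 9.17% lower). It was lower in CD25+ progenitors, at -0.37 ± 0.09 (adjusted p = 0.00492). In mature Tregs against FOXP3lo progenitors edgeR called 0 of 6 (2.51% and 2.21% of all genes), while 1 had an unadjusted p under 0.05 and DESeq2 called 1. In Bst2+ cells 4 of 6 were called lower and 1 higher, against 19.8% and 19.3% of all genes. Scap was at -0.66 ± 0.19, a call lost without Bst2+ replicate 43, at -0.52. Mbtps1 was at -0.22 ± 0.07, a call lost without Bst2+ replicate 42, at -0.16, and with RLE size factors, at -0.17. The higher one was Mbtps2, the site-2 protease, at 0.74 ± 0.16. The other branches of isoprenoid use, such as prenylation, dolichol and ubiquinone, were followed by 10 genes. In CD25+ progenitors against conventional cells edgeR called 0 of the 10 (5.98% of all genes higher and 5.66% lower). There 0 had an unadjusted p under 0.05 and DESeq2 called 0, with a median of -0.02. Between CD25+ and FOXP3lo progenitors edgeR called 0 (9.93% and 9.17% of all genes), with 1 unadjusted, 1 by DESeq2 and a median of 0.21. Between mature Tregs and FOXP3lo progenitors edgeR called 0 (2.51% and 2.21%), with 0 unadjusted, 0 by DESeq2 and a median of 0.07. Counts of 0 among 10 genes lie near these shares.

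In fatty acid synthesis, which SREBP1 controls in many tissues, Acaca was high in both gates with CD25. Acaca, acetyl-CoA carboxylase, was at 16.5, 19.1 and 19.5 CPM in conventional cells, 19.2, 16.99 and 24.3 CPM in FOXP3lo progenitors, 72.2, 67.8 and 64.2 CPM in CD25+ progenitors and 46.5, 37.4 and 40.01 CPM in mature Tregs. CD25+ progenitors lay highest and mature Tregs next, as for the mean of the sterol genes, and the 2 gates without CD25 overlapped. Its log2 fold change was 1.89 ± 0.19 for CD25+ progenitors over conventional cells (adjusted p = 2.13e-06) and 1.03 ± 0.18 for mature Tregs over FOXP3lo progenitors (adjusted p = 0.00233). Of 9 genes tested, 5 were called higher and 1 lower in CD25+ against FOXP3lo progenitors (9.93% and 9.17% of all genes), with a median of 1.12. In mature Tregs against FOXP3lo progenitors 1 was called higher and 0 lower (2.51% and 2.21%), with a median of 0.24. In mature Tregs against conventional cells the list had 1 higher (Acaca) and 1 lower (6.45% and 5.73%), with a median of -0.31. The lower one was Scd2, a fatty acid desaturase, at -0.33 ± 0.09 (adjusted p = 0.0265). The Scd2 call was lost in 4 of the 15 fits that leave out a library, without conventional replicate 40 or 43 or mature Treg replicate 40 or 42 (-0.36 to -0.28). Fasn, the fatty acid synthase, was at -0.31 ± 0.12 there and was not called (adjusted p = 0.129). Lower in CD25+ than in FOXP3lo progenitors was Acss2, which makes acetyl-CoA from acetate, at -1.47 ± 0.27 (adjusted p = 7.99e-04).

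**Figure D5:**
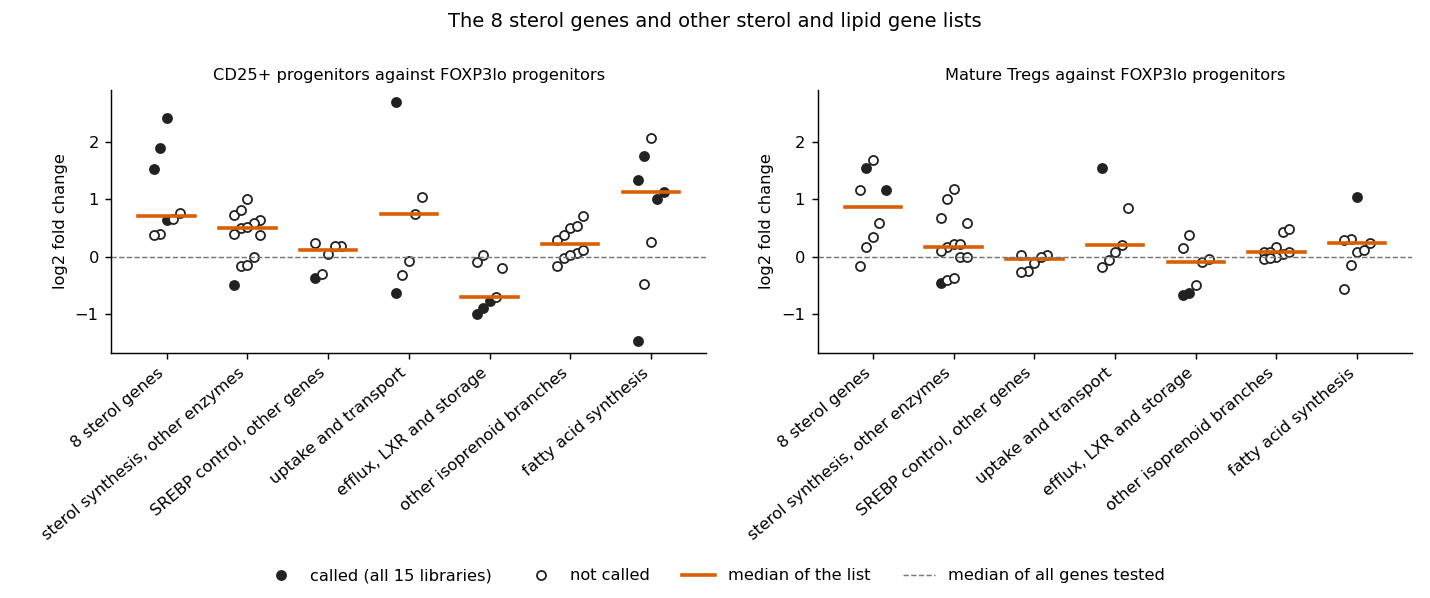
Log2 fold changes (vertical axis) of the 8 sterol genes and of 6 other lists, for CD25+ and for mature Treg libraries against FOXP3lo progenitors. Each point is a gene, filled where called with all 15 libraries, orange bars are list medians and the dashed line is the median of all genes tested; Vldlr and Fads2, with no count in FOXP3lo progenitors, are not drawn and enter the medians at a floor of 3 counts over the group, which left those medians at 0.74 and 0.20, and 1.12 and 0.24.

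The sterol genes were not equally close to their own average. Over the 12 libraries of the 4 gates without BST2, Pearson's r of a gene's log2 CPM with the mean of the 8 standardised genes was 0.93 for Sqle, 0.88 for Fdft1 and Cyp51, 0.87 for Idi1, 0.84 for Srebf2, 0.78 for Hmgcs1, 0.74 for Insig1 and 0.19 for Lss, each gene being part of that mean. Over all 15 libraries Srebf2 was at 0.20, while Sqle was at 0.92. These correlations describe libraries that fall into groups by gate, and no test was made of them.

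Among 8601 other genes with a mean of at least 5 CPM, those most like the mean over 12 libraries were Cct5 and Anxa2 at r = 0.98, Kars, Npm1, Eif5a, Dusp5 and Vars at 0.97, and Acaca at 0.96. Cct5 encodes a subunit of the chaperonin that folds actin and tubulin, Kars and Vars encode aminoacyl-tRNA synthetases, Npm1 a nucleolar protein of ribosome assembly, Eif5a a translation factor and Dusp5 a phosphatase of ERK kinases. Npm1 averaged 430.3 ± 14.5 CPM in conventional cells, 435 ± 5.81 CPM in FOXP3lo progenitors, 996 ± 28.0 CPM in CD25+ progenitors and 694 ± 37.0 CPM in mature Tregs (SD, n = 3). Dusp5 averaged 64.3 ± 5.51, 65.3 ± 3.91, 219.7 ± 35.6 and 142 ± 6.23 CPM in those gates. Over all 15 libraries r was 0.96 for Acaca, 0.95 for Cct5, 0.91 for Anxa2 and Npm1 and 0.90 for Eif5a. It was 0.71 for Kars, 0.59 for Vars and 0.44 for Dusp5.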

How the data were processed

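Total RNA of sorted thymocytes was sequenced with a stranded low-input kit of the SMARTer Pico type, per the labels' protocols. The deposited values are raw counts per gene for 55573 Ensembl genes, which the authors made with featureCounts 1.6.2 (Ensembl 97, GRCm38, mapping quality of at least 10, strand setting 2), per the file headers. The submitters' processing notes name Trimmomatic 0.33, HISAT2 2.1.0 and featureCounts 1.4.6. No entry lacked a gene name (0), and all 15 value columns were mapped to a library.

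Genes were named by position against RefSeq GRCm38.p6 (Jaccard overlap of at least 0.5 with a margin of 0.2, or of at least 0.1 with a sole partner), which named 36567 genes and all 127 list entries. Tests used edgeR 4.0.16 in R 4.3.3 (quasi-likelihood, robust, TMM, filterByExpr, 5 group means, all 15 libraries), checked on simulated counts; log2 CPM used a prior count of 2. The alternatives were RLE factors, no low-count filter, the replicate number as a block, fits without the Bst2+ libraries or of only the groups compared, DESeq2 1.42.0, and leaving out each library.

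The 8 genes, the lists and the rule for other named genes (per comparison and list, up to 3 called genes with the smallest adjusted p; the 8 named protein-coding genes, clone names left out, most like the mean) were chosen with earlier results of these data known. Some genes of the lists are not reported here; they stayed in every fit. Dhcr7, Mvd, Stard4, Lrp8 and Lipa in the fit without the Bst2+ libraries were named after their values were seen. Replicate numbers were taken as the 3 biological replicates of the series' design; deviations of same-numbered libraries from their group means correlated at -0.016 to 0.0423 across genes (30 pairs), and those of other pairs at -0.0444 to 0.0349 (60 pairs). Counts are not corrected for amplification copies.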

Additional observations from a re-analysis of the deposited data

Results flagged for a closer look

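For 3 genes of cholesterol transport, the difference across CD25 was unequal between cells with and without FOXP3, by the interaction test (edgeR, adjusted over all genes); none of the 8 sterol genes passed it. Npc2 was at 127 to 143 CPM in conventional cells and 75.8 to 83.6 CPM in CD25+ progenitors, but at 114 to 131 CPM in FOXP3lo progenitors and 116 to 123 CPM in mature Tregs. The difference of its log2 fold changes was 0.71 ± 0.14 (adjusted p = 0.00730). The log2 fold change of Abca1 was 0.61 ± 0.17 for CD25+ progenitors over conventional cells and -0.64 ± 0.17 for mature Tregs over FOXP3lo progenitors, a difference of -1.25 ± 0.25 (adjusted p = 0.00911). That difference was called whichever library was left out (-1.36 to -1.10). Of its parts, the call of 0.61 was lost without any 1 conventional library or CD25+ replicate 40 or 43 (0.46 to 0.72 over 15 fits), and that of -0.64 in 10 of 15 such fits (-0.70 to -0.56). Abcg1, another exporter of cholesterol, was lower in CD25+ progenitors (-0.32 ± 0.09 against conventional cells, a call lost without conventional replicate 40 or 43 or CD25+ replicate 40 or 42, at -0.31 to -0.30, and with no filter on low counts, adjusted p = 0.129), while mature Tregs and FOXP3lo progenitors differed by 0.15 ± 0.08 (adjusted p = 0.477), a difference of 0.47 ± 0.12 (adjusted p = 0.0481). The Abcg1 call was lost without any 1 library of the 4 gates without BST2 (0.43 to 0.51), with no filter on low counts (0.46) and with the replicate block (0.48, adjusted p = 0.0526).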

How the results depend on the processing

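Of 14 calls on sterol genes, all held with RLE factors, with only the groups compared and with DESeq2, and so did the 9 of them between the other 4 gates without the Bst2+ libraries. With the replicate block 13 held and with no low-count filter 11; the block also ended 5 of 63 calls on other pathway genes (Mbtps1 0.29, Scarb1 -1.18, Coq2 -0.89 and Fads1 -1.16 in FOXP3lo progenitors against conventional cells, and the Abcg1 interaction 0.48) and changed no other call. Of those 63 calls, no low-count filter ended 7 and RLE factors 2, and leaving out 1 library ended 98 of 945. The one result labelled reversed was Insig1 in Bst2+ cells, at -0.06 without Bst2+ replicate 43 (-0.06 to 0.58 leaving out 1 library). For sterol genes not called, another 22 of 750 fits without 1 library had the other sign within 1 standard error. These were labelled unchanged. So was 1 result each with RLE factors, the replicate block and DESeq2.

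Genes called numbered 1871, 1400, 1957, 3069, 2096, 759 and 378 for CD25+ against conventional, FOXP3lo against conventional, mature against conventional, CD25+ against FOXP3lo, mature against CD25+, mature against FOXP3lo and the interaction, and 6286 for Bst2+. In that order they were 4534, 3925, 4756, 6187, 5114, 2919 and 1698 without the Bst2+ libraries, and 4623, 4459, 4418, 6409, 4687, 2855 and 1698 with only the groups compared. DESeq2 called 2453, 2031, 2596, 3754, 2773, 1224 and 644 in that order, and 6942 for Bst2+. Leaving out 1 library gave 1268 to 2925, 812 to 2338, 1342 to 3038, 2228 to 4364, 1448 to 3321, 418 to 1465 and 222 to 743, and 6033 to 7658 for Bst2+; the upper ends came without Bst2+ replicate 40 in the comparisons of the other gates.

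Sterol genes called, of 8, were 7, 2, 7, 8, 2 and 6 in the first 6 comparisons both without the Bst2+ libraries and with only the groups compared. DESeq2 called 4 for CD25+ against conventional, 5 for mature against conventional, 1 for mature against CD25+ and 4 for mature against FOXP3lo. With no filter 4 were called for CD25+ against conventional and 1 for mature against FOXP3lo, where the replicate block also called 1. Leaving out 1 library gave 1 to 4, 0 to 0, 0 to 5, 2 to 6, 0 to 1 and 0 to 4, with 4 to 6 for Bst2+ and 0 to 0 for the interaction. The cause of these changes was not tested. Sqle and Idi1 had as few as 17 and 21 counts in a library.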
